A study of Mus musculus with 6 samples.

Results

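The 10 genes described here are immediate early genes: the AP-1 genes Fos, Fosb, Jun, Junb, Jund and Atf3, the EGR genes Egr1, Egr2 and Egr3, and the nuclear receptor gene Nr4a1. They were followed through every probe set whose single annotated gene symbol was one of these names, which gave 14 of the 45037 probe sets tested, for 10 of 18193 genes. Expression was measured on Affymetrix mouse arrays in bone marrow progenitors sorted as Lin-Sca1+CD150+CD48+, from 3 control pools and 3 pools lacking c-Myc and N-Myc (dKO). Control mice carried floxed c-myc and N-myc alleles (c-myc f2 N-myc f2), and dKO mice carried the same alleles with MxCre, a Cre transgene that interferon signalling switches on. All mice were 8 weeks old and of a mixed background. All received 2 daily injections of pI-pC, an interferon inducer, and cells were taken 3 days after the last. Each control array held a pool of 2 mice and each dKO array a pool of 3. Since MxCre was present in the dKO mice alone, an effect of the transgene and the loss of both genes cannot be told apart.

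Immediate early genes are switched on within minutes of a stimulus, without new protein synthesis. Kinase cascades act on factors already bound at their promoters, chiefly SRF with its ELK partners at CArG boxes and CREB at cyclic AMP response elements (CRE). FOS and JUN proteins pair through leucine zippers to form AP-1, ATF3 is a stress-induced member of the same bZIP class, EGR proteins bind GC-rich sites through zinc fingers, and NR4A1 is an orphan nuclear receptor. In blood cells these genes respond to growth factors, cytokines, antigen receptors and stress, and the handling of cells during isolation can also induce them. The comparison asks which of them differed between dKO and control progenitors.

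The arrays correlated at r = 0.981 to 0.986 within control, 0.969 to 0.980 within dKO and 0.956 to 0.971 between the groups, over probe sets. Myc fell by 2.97 ± 0.22 on the log2 scale (limma, adjusted p = 0.000458), and a Mycn probe set by 5.27, while the other 2 Mycn probe sets differed by -0.83 and 0.34 without passing. Whether these probe sets lie in the deleted parts was not tested. Of the sorting markers, Slamf1 (CD150, 0.78) and Cd48 (0.20) did not pass, nor did Kit (-0.29), a progenitor gene outside the gate. The Slamf1 probe sets differed by 0.73, 0.74 and 0.78 (limma, unadjusted p = 0.027, 0.044 and 0.055), with overlapping groups. Sca1 (Ly6a), also in the gate, had no probe set annotated with its symbol alone and was not measured. Control 1 is labelled as LT-HSCs in its tissue field, with the same gate and a progenitor title. Xist, the RNA of the inactive X chromosome, was high in control 1 (9.10) and dKO 1 (10.50) and between 5.03 and 5.86 in the other arrays.

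In dKO progenitors Egr1, Egr2 and Atf3 rose, and Fos, Fosb, Jun, Junb, Jund, Egr3 and Nr4a1 did not pass the test. At an adjusted p under 0.05 (limma, over all probe sets), 4 of the 14 member probe sets were higher and 0 lower, where 3.6% of all probe sets passed, 1.83% higher and 1.78% lower. By the brightest probe set of each gene, 3 of 10 members were higher and 0 lower, against 2.45% and 2.03% of all genes (4.49% in all). At an unadjusted p under 0.05 there were 7 of the 14 probe sets, against 15.9% of all, and 5 of the 10 genes, against 17.3%. By gene, the groups did not overlap in 4 of 10 members, all higher, against 12.7% of all genes higher and 10.7% lower. In such bulk samples a changed share of a cell type and a changed level per cell cannot be told apart. The median difference of the 10 genes was 0.58 on the log2 scale, beside 0.05 over all genes, and ranged from 0.37 without dKO 3 to 0.84 without dKO 2. For 5 of the 14 probe sets the lowest dKO array exceeded the highest control array, against 10.7% of all probe sets, and for 0 the order was the opposite, against 10.6%. The plot of values by array shows each member, and levels are not comparable between its panels because probe sets differ in their response.

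**Figure D1:**
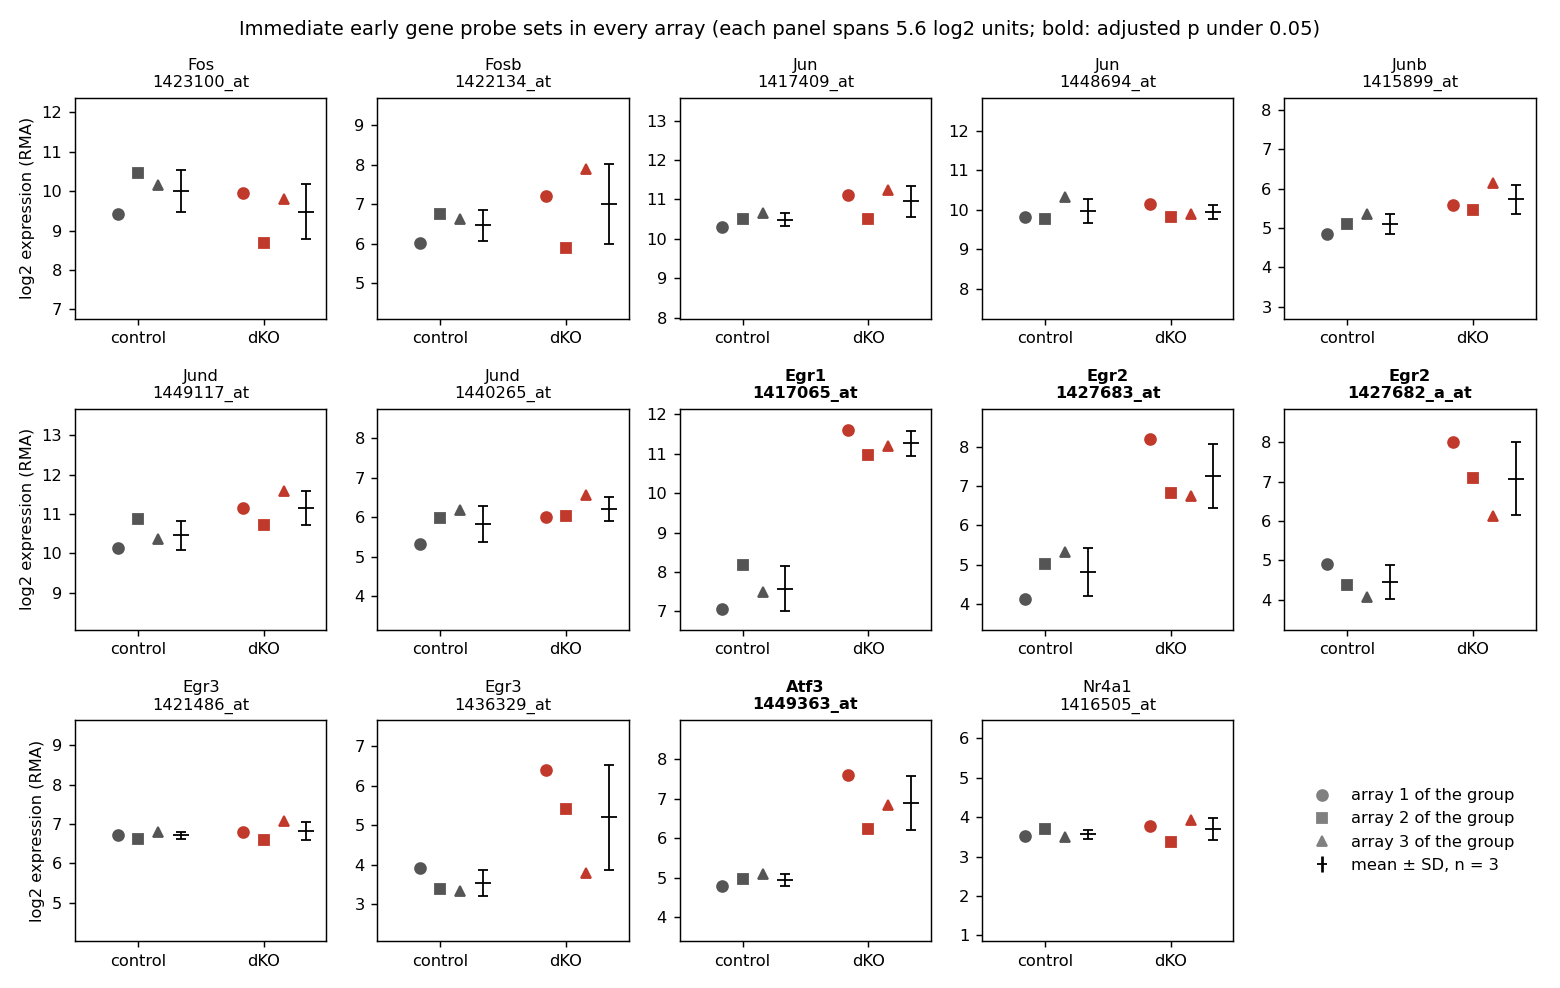
Log2 RMA expression (vertical axis) of the 14 member probe sets in the 3 control and 3 dKO arrays, a panel for each, with marker shapes for the arrays of a group and bars for the mean ± SD. The dKO arrays of Egr1, both Egr2 probe sets and Atf3 stand clear of the controls, by 1.14 to 2.79 log2 units at the closest, whereas the Fos panel has dKO 2 at the bottom with 8.68.

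The EGR family held the member with the highest difference. Egr1 (probe set 1417065_at), a zinc-finger factor induced by growth factors and stress, stood at 7.06, 8.19 and 7.49 in the control arrays and at 11.61, 10.98 and 11.21 in the dKO arrays. The lowest dKO array thus lay 2.79 log2 units above the highest control array. Egr1 rose by 3.68 ± 0.30 (SE, n = 3), or 12.9-fold (limma, adjusted p = 0.000778), which was rank 15 from the top among 18193 genes. It passed with each single array left out, with adjusted p between 0.00178 and 0.00654 and differences from 3.43 to 3.99.

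Egr2, a relative of Egr1 that acts in myeloid and T cell differentiation among other settings, was measured by a pair of probe sets. The brighter (1427683_at) stood at 4.12, 5.01 and 5.32 in control and 8.18, 6.83 and 6.74 in dKO, a rise of 2.43 ± 0.43 or 5.40-fold (limma, adjusted p = 0.0203). The other (1427682_a_at) stood at 4.92, 4.38 and 4.08 in control and 8.00, 7.08 and 6.14 in dKO, a rise of 2.61 ± 0.43 or 6.12-fold (limma, adjusted p = 0.0155). In both, dKO 1 was the highest array and the groups did not overlap. The order of the control arrays was opposite in the 2 probe sets, with all control values below the array medians of 5.91 to 5.94. The calls did not hold without some arrays. The brighter probe set had adjusted p = 0.0532 without control 1 and 0.0695 without control 2, and the other 0.0689 without control 2, 0.0621 without control 3 and 0.0576 without dKO 2.

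Egr3, which acts downstream of antigen receptors in lymphocytes, was measured by a pair of probe sets that gave different values. The brighter (1421486_at) ranged from 6.62 to 6.80 in control and from 6.60 to 7.07 in dKO, a difference of 0.11 with a 95% interval from -0.31 to 0.53 that did not pass (limma, adjusted p = 0.850). The dimmer (1436329_at) stood at 3.92, 3.38 and 3.32 in control and at 6.41, 5.41 and 3.78 in dKO. Here dKO 1 and dKO 2 lay above every control array and dKO 3 lay within the control range. Its difference of 1.66 ± 0.56 did not pass (adjusted p = 0.178), and without dKO 3 it was 2.37 with adjusted p = 0.0174. With array weights, where dKO 3 had the lowest weight (0.377), it was 2.24 (limma, adjusted p = 0.0247).

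Atf3, a bZIP repressor and activator induced by many stresses, was the AP-1 class member that rose. Its probe set (1449363_at) stood at 4.78, 4.97 and 5.09 in control and at 7.61, 6.23 and 6.85 in dKO, so that every dKO array was above every control array by at least 1.14. The rise was 1.95 ± 0.32 or 3.86-fold (limma, adjusted p = 0.0149). All 3 control values lay below the array medians. Control arrays were close together (SD 0.16) and dKO arrays were spread more widely (SD 0.69). The call was lost without control 1 (adjusted p = 0.0503), without control 2 (0.0635) and without control 1 and dKO 1 together (1.51, adjusted p = 0.0602).

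The FOS genes showed no call. Fos (1423100_at), the classical partner of JUN in AP-1, stood at 9.43, 10.46 and 10.14 in control and at 9.96, 8.68 and 9.81 in dKO. The groups overlapped, and dKO 2 was the lowest array of all. The difference of -0.53 ± 0.38 had a 95% interval from -1.39 to 0.33 (limma, adjusted p = 0.582). Fosb (1422134_at), its paralogue in the FOS family, stood at 6.02, 6.75 and 6.63 in control and 7.21, 5.89 and 7.90 in dKO, again with dKO 2 lowest. Its difference of 0.53 had an interval from -0.51 to 1.57 (adjusted p = 0.664), and it was 1.09 without dKO 2 (adjusted p = 0.131).

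The JUN genes did not pass by any of their 5 probe sets, 4 of which had a higher mean in dKO. Jun, the core AP-1 subunit, ranged from 10.31 to 10.65 in control and from 10.51 to 11.24 in dKO by its brighter probe set (1417409_at, 0.47, 95% interval -0.05 to 0.99, limma adjusted p = 0.374). Its other probe set ranged from 9.76 to 10.32 in control and from 9.82 to 10.16 in dKO and differed by -0.01 (interval -0.49 to 0.46, adjusted p = 0.988). Junb, which restrains proliferation of myeloid progenitors, stood in its probe set 1415899_at at 4.85, 5.11 and 5.35 in control and 5.59, 5.45 and 6.15 in dKO. It was the remaining probe set whose groups did not overlap, with a gap of 0.10 log2 units. Its difference of 0.63 ± 0.23 (interval 0.09 to 1.16) did not pass over all probe sets (adjusted p = 0.227). Jund, the least inducible JUN gene, stood at 10.14, 10.87 and 10.37 in control and at 11.15, 10.71 and 11.58 in dKO by its brighter probe set (1449117_at). Here dKO 1 and dKO 3 lay above every control array and dKO 2 did not. The difference was 0.69 ± 0.27 (interval 0.06 to 1.31, limma adjusted p = 0.261), and that of its other probe set 0.38 (interval -0.23 to 0.99, adjusted p = 0.570), again with overlapping groups. Nr4a1 (1416505_at), a reporter gene of antigen receptor signalling in lymphocytes, ranged from 3.49 to 3.69 in control and from 3.38 to 3.94 in dKO, low on the array's scale, and differed by 0.14 (interval -0.31 to 0.59, adjusted p = 0.818).

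**Figure D2:**
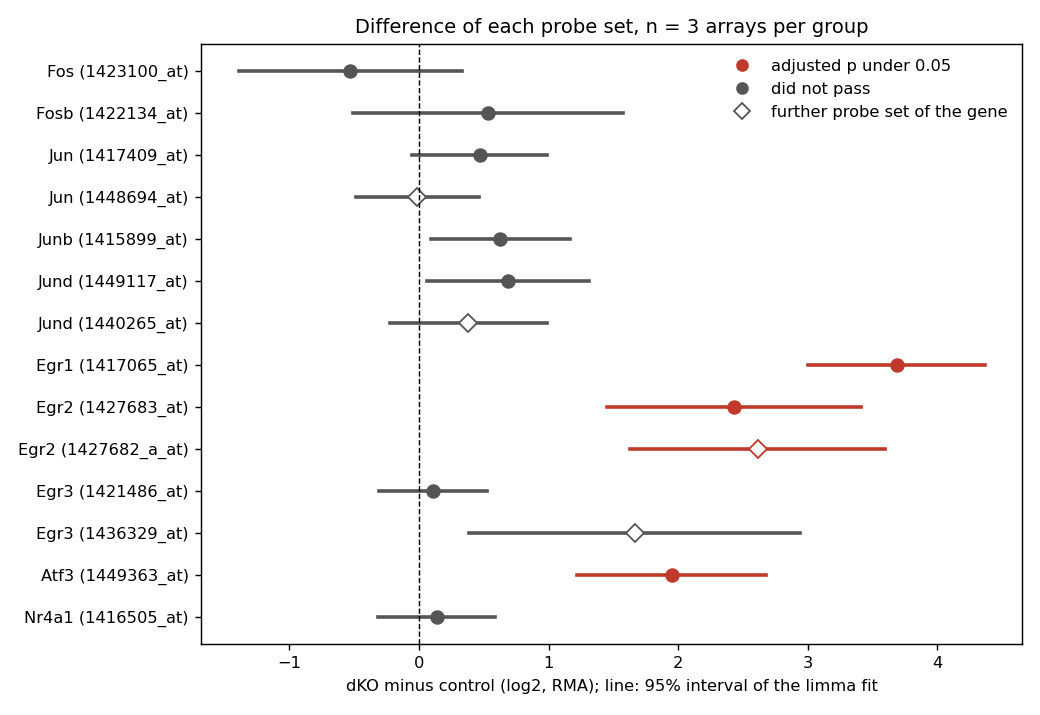
Difference between dKO and control on the log2 scale (horizontal axis) for the 14 member probe sets, with points for the estimate and lines for the 95% interval of the limma fit, 3 arrays per group. The intervals of Egr1 (3.00 to 4.37), both Egr2 probe sets and Atf3 lie above 1, while that of Fos runs from -1.39 to 0.33.

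The arrays did not rank alike across members. In dKO, array 2 was the lowest of its group in 10 of the 14 probe sets and the highest in 0. Array 1 was the highest in 7, among them Egr1, Egr2, the dimmer Egr3 probe set and Atf3, and array 3 in the other 7, among them Fosb, Junb and Jund and the brighter Jun probe set. In control, array 1 was the lowest in 9. The SD was larger in dKO than in control for 11 of the 14 probe sets. These counts were not taken over all probe sets, so they cannot be read as particular to the members. Over all probe sets the dKO arrays also correlated less with one another (r = 0.969 to 0.980) than the control arrays did (0.981 to 0.986). Control 1 and dKO 1 are the pools with high Xist. Without both of them, Egr1 differed by 3.26 (adjusted p = 0.0058) and the brighter Egr2 probe set by 1.62 (adjusted p = 0.0322). The plot of left-out arrays shows that Egr1 alone among the called members stayed under the threshold each time.

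**Figure D3:**
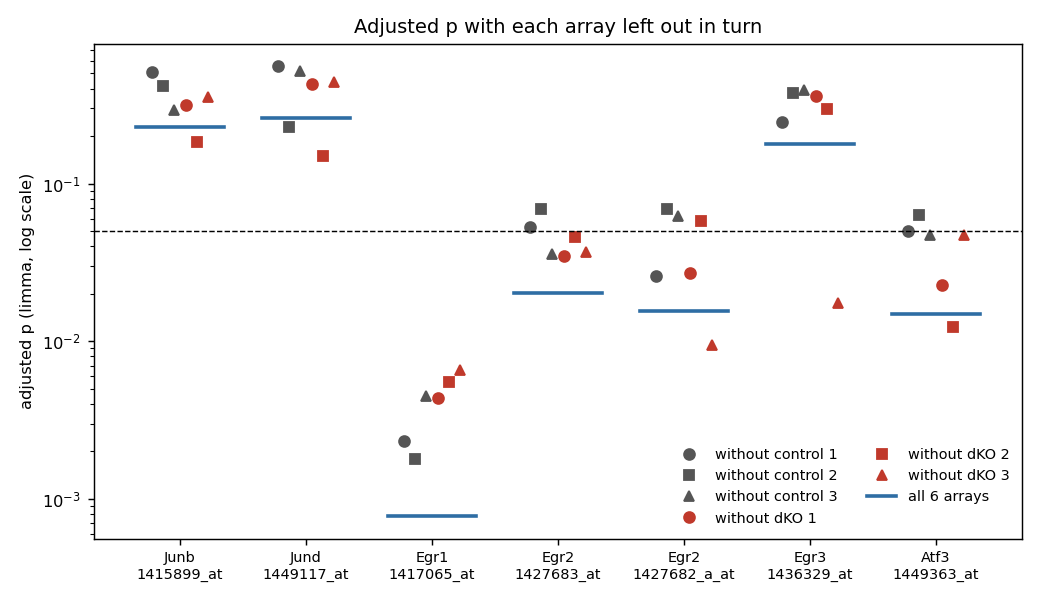
Adjusted p of the limma fit (vertical axis, log scale) with each array left out in turn, for the 7 member probe sets with an unadjusted p under 0.05, where the bar is the value with all 6 arrays and the dashed line is 0.05. Egr1 stays between 0.00178 and 0.00654, Egr2 and Atf3 cross the line without some arrays, and the dimmer Egr3 probe set drops below it without dKO 3.

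Members of a family were set against each other within each array, by the log2 difference of their brightest probe sets, in 7 pairs. Since probe sets respond differently, the shift of such a difference between the groups can be read, and its level cannot. For Egr1 over Egr3 the difference was 0.34, 1.57 and 0.69 in control and 4.81, 4.38 and 4.14 in dKO, a shift of 3.58. For Egr2 over Egr3 the shift was 2.32, for Egr1 over Egr2 1.25 and for Fosb over Fos 1.06, with groups that did not overlap in any of the 4. Fosb over Fos went from -3.41, -3.71 and -3.52 in control to -2.75, -2.78 and -1.91 in dKO. Each of these 4 had a two-sided exact permutation p = 0.1 (0.175 adjusted over the 7 pairs), the smallest that 3 against 3 arrays allow, so the design cannot pass 0.05. Within the JUN family the shifts were 0.06 to 0.22, with overlapping groups and exact permutation p from 0.4 to 0.9. These depended on the probe sets: with those of smallest SD, Junb over Jun shifted by 0.64 without overlap (exact permutation p = 0.1, 0.14 adjusted over the 7 pairs), Jund over Jun by 0.39 and Jund over Junb by -0.25, both with overlap (exact p = 0.5 and 0.2). For Egr2 and Egr3 these values rest on the brighter probe set, which the choice by smallest SD also kept. By the array values given above, the other probe sets change part of this reading. Egr1 over Egr2 overlaps between the groups with the other Egr2 probe set. With the dimmer Egr3 probe set, the brighter Egr2 probe set over Egr3 overlaps, while the other Egr2 probe set over Egr3 and Egr1 over Egr3 do not.

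The promoters of the members were read from RefSeq's promoter table (GRCm38.p6), which lists 8 of the 10, with Egr1 and Egr3 not among them. The 250 bases before the start are shown for the genes that rose and are listed, and for Fos as a textbook immediate early promoter that showed no call. Egr2 has 5 listed starts, numbered from upstream, of which starts 1 and 3 are shown. Sequences run 5′ to 3′ on the gene's strand, and capitals mark any of 8 searched motifs on either strand (the TGACG core is also part of the whole CRE).
Egr2 start 1, chr10:67535249-67535498, plus strand: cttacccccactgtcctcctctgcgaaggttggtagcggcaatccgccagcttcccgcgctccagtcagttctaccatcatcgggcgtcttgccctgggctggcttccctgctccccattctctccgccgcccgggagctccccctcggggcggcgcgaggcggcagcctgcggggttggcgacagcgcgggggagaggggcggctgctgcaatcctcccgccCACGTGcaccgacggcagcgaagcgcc
Egr2 start 3, chr10:67537619-67537868, plus strand: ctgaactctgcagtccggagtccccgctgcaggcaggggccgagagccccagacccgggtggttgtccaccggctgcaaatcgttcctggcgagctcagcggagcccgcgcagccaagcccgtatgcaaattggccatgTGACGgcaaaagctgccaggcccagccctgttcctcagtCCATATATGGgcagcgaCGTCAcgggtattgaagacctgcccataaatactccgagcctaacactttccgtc
Atf3, chr1:191183334-191183583, minus strand: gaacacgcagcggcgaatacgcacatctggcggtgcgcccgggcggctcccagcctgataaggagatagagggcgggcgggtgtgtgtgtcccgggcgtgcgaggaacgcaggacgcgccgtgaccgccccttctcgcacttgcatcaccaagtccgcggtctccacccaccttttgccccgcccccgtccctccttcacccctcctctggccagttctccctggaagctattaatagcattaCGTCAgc
Fos, chr12:85473640-85473889, plus strand: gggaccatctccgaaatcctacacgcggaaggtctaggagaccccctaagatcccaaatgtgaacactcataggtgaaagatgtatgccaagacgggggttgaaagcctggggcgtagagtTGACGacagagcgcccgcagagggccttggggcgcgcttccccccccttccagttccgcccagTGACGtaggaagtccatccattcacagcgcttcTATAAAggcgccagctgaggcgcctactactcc

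Start 1 of Egr2 held an E-box, CACGTG, the site that MYC binds with MAX, at positions -27 to -22 from the start. It was the only one of the 8 listed members with that motif in the window of its most upstream start, and 6.04% of 27025 genes had it. The other 4 windows of Egr2 each held a CArG box, as did 1.47% of all 32851 windows in the table. In 3 of these 4 windows, which overlap one another, it read CCATATATGG and had a TGACG core of the CRE on either side. The TGACG core stood in the windows of Fos, Fosb, Junb, Atf3 and Nr4a1, 5 of 8 members, against 17.8% of all genes, and in Nr4a1 it occurred 4 times. Fosb and Nr4a1 held an EGR site (GCGNGGGCG), as did 4.63% of genes, and Fos held a TATAAA box (13.0% of genes). The whole CRE (TGACGTCA), the AP-1 site TGANTCA, the NR4A site AAAGGTCA and, at the most upstream starts, the CArG box were in 0 of the 8 windows, against 1.60%, 6.85%, 1.31% and 1.41% of genes. Only the 250 bases before a start were searched, so sites further upstream were not looked for in any member, Fos included. A match describes letters in a window and not binding. Of the members with a match, Egr2 and Atf3 rose, and Fos, Fosb, Junb and Nr4a1 showed no call.

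Relatives of the members were taken from lists in the same way, by the brightest probe set of each gene. Of 13 further AP-1 class genes measured (of 14 listed), 2 rose and 0 fell, against 2.45% and 2.03% of all genes. Their median difference was 0.18. Maff, a small MAF protein without an activation domain, rose from 4.99, 5.48 and 5.47 to 8.18, 7.64 and 7.78, by 2.55 ± 0.22 (limma, adjusted p = 0.00093). Jdp2, a repressor that pairs with JUN, rose by 1.28 ± 0.24 (adjusted p = 0.0235), lost its call without control 1 (0.0540), control 3 (0.0719), dKO 1 (0.0615) or dKO 2 (0.0741), and differed by 0.06 in its other probe set. The list's count was then 1 without control 3, dKO 1 or dKO 2. Fosl2, a FOS relative, differed by 0.85 (adjusted p = 0.101), and Maf by 1.32 (adjusted p = 0.138, or 0.0285 without control 1).

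Of 6 EGR and NR4A relatives and EGR co-repressors, 1 rose and 0 fell, against 2.45% and 2.03% of all genes. Nab2, a co-repressor of EGR proteins that EGR1 itself induces, stood at 5.27, 5.23 and 4.99 in control and at 6.75, 6.32 and 7.28 in dKO, a rise of 1.62 ± 0.25 (limma, adjusted p = 0.0119). The call was lost without control 2 (adjusted p = 0.0523), without control 3 (0.0544) and without control 1 and dKO 1 together (0.0758). Egr4 (0.25), Nr4a2 (0.21) and Nr4a3 (0.32) did not pass, and the list's median was 0.23.

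Of 40 other immediate early genes, 9 rose and 1 fell, against 2.45% and 2.03% of all genes, with a median difference of 0.48. Gem, a small GTPase that limits calcium channels, rose from 5.73 ± 0.54 to 9.15 ± 0.20 (SD, n = 3), by 3.43 ± 0.27 (limma, adjusted p = 0.000694). Phlda1 rose by 2.69, the cytokine signalling inhibitor Socs3 by 2.42 (1.34 to 2.44 over its 3 probe sets), the lymphocyte activation antigen Cd69 by 2.33, the growth factor Hbegf by 1.79 and Ier3 by 1.35. Each of these 6 kept its call without any single array, with adjusted p up to 0.0388, while Ier3 had 0.0733 without control 1 and dKO 1 together. Plk2 rose by 2.10, but differed by 0.17 in its other probe set, and had adjusted p = 0.0622, 0.0507 and 0.0697 without control 1, 2 and 3. Tnfaip3 (1.43) passed when dKO 3 was left out and with no other array left out (adjusted p up to 0.149), and Cited2 (0.97) did not pass without each single array (0.0627 to 0.104). The list's count higher was 6 without control 1, control 2 or control 3 and 7 without dKO 1 or dKO 2. The gene that fell was Klf4, a factor of monocytes, from 10.65 ± 0.51 to 5.96 ± 0.17, so that it fell by 4.69 ± 0.26 on the log2 scale (limma, adjusted p = 0.000171), with -2.88 in its other probe set. Ier2 (0.77), Btg2 (0.66), Dusp1 (0.31), Srf (-0.16) and Zfp36 (-0.38) did not pass.

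Among transcripts of the kinases and factors that act upstream, 1 passed. Of 15 measured genes (of 24 listed) of the ERK, SRF and CREB arm 0 passed in either direction by limma, against 4.49% of all genes. In 15 genes a count of 0 is near that share. At an unadjusted p under 0.05 there were 0, against 17.3% of all genes, and the median was 0.12. Over all genes 2.03% fell and 2.45% rose. Of 12 genes (of 13 listed) of the JNK and p38 arm 1 fell and 0 rose. It was Map3k1, a kinase at the head of the JNK cascade (-0.92 ± 0.19, adjusted p = 0.0350), with values of 0.0860, 0.134, 0.139, 0.105 and 0.0616 without control 1, control 2, control 3, dKO 1 and dKO 3, and 0.0703 with a replicate block. Transcript levels say nothing of the activity of these kinases.

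Of 18 genes known as targets of AP-1, EGR or NR4A proteins, 4 rose and 1 fell, against 2.45% and 2.03% of all genes. Their median difference was 0.26. Thbs1, a matrix protein stored in platelets, rose by 4.09 ± 0.18 (limma, adjusted p = 9.01e-05), with its call kept without any single array. Il6, a cytokine, rose by 3.71 ± 0.57 (adjusted p = 0.0112, or 0.0561 without control 2 and 0.0501 without dKO 2). Fasl, a death ligand of T and NK cells, rose by 2.16. Tgfb1 rose by 1.36, but differed by 0.51 in its other probe set. Fasl passed when dKO 3 was left out and with no other array left out (adjusted p up to 0.137), and Tgfb1 passed when dKO 1 or dKO 3 was left out (adjusted p up to 0.120 otherwise). Plau, the urokinase protease, fell by 1.38 on the log2 scale, with a difference of -0.60 in its other probe set (adjusted p = 0.0163, with 0.0693, 0.0710 and 0.0586 without control 2, control 3 and dKO 2). The number higher was 2 without control 1 or control 3 and 1 without control 2 or dKO 2. It was 2 under cyclic loess scaling. Ccnd1 (-0.52), Plaur (-0.61) and Cd44 (-0.13) did not pass.

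**Figure D4:**
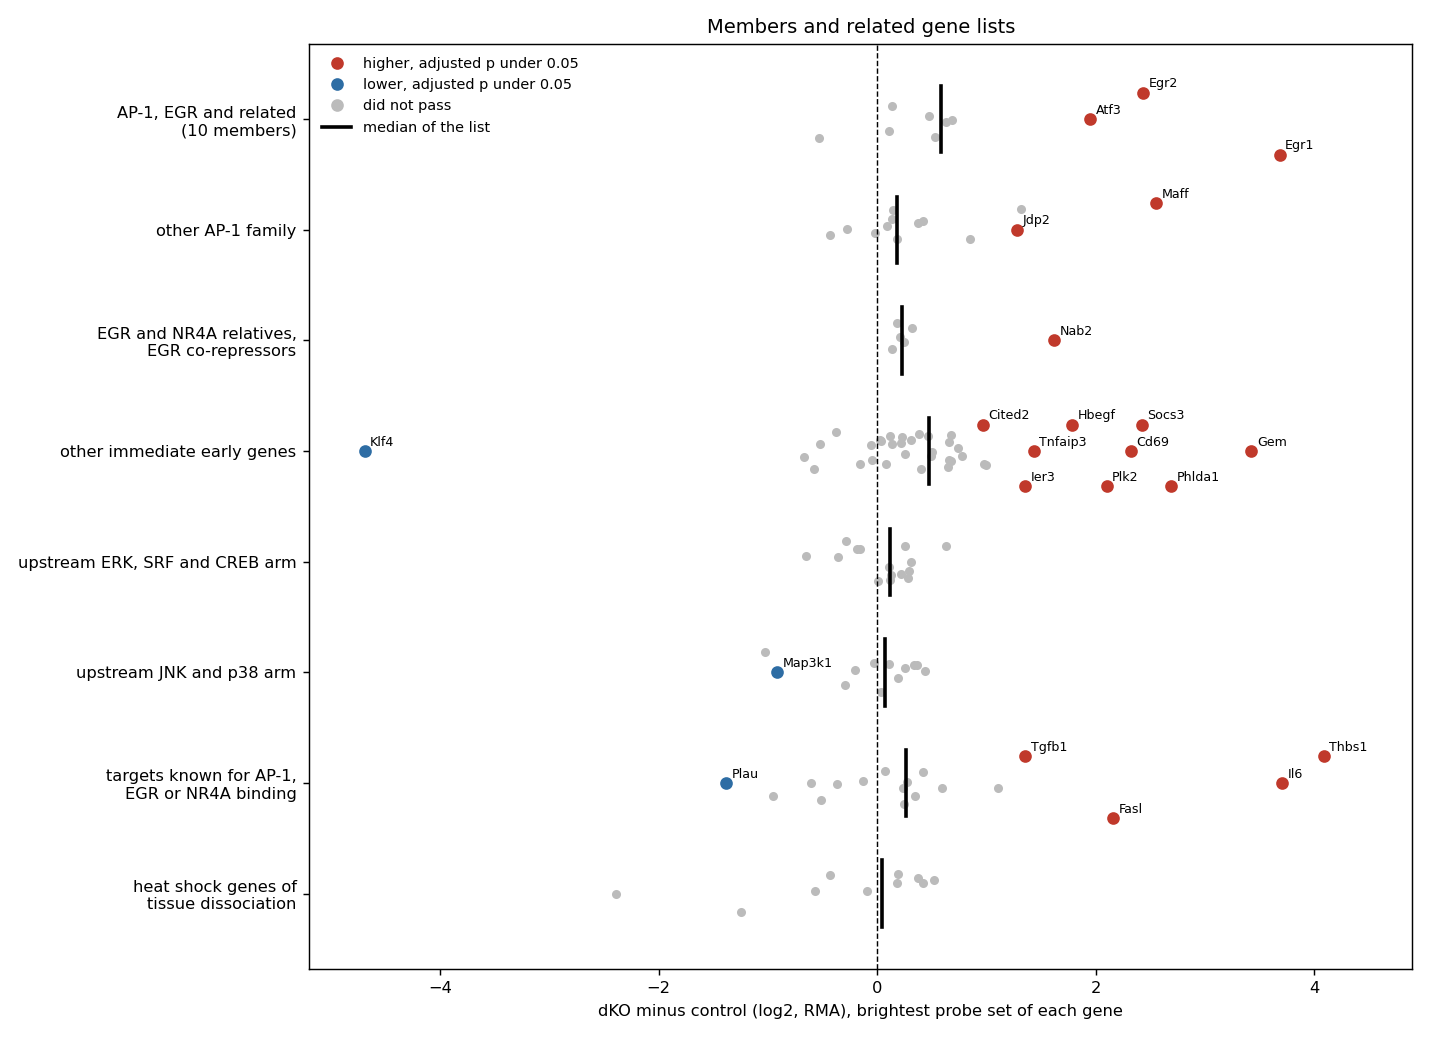
Difference between dKO and control on the log2 scale (horizontal axis) for the brightest probe set of each member and of each gene in 7 related lists, with coloured points for genes at an adjusted p under 0.05 and a bar for each list's median. Called genes of the members, of other AP-1 genes and of other immediate early genes lie to the right except Klf4 at -4.69, and the ERK, SRF and CREB list has no coloured point.

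Genes of cell handling and markers of other cell types were read from the same arrays. Of the heat shock genes, which cell isolation can induce together with Fos and Jun, 10 of 11 were measured. Of these, 0 passed the limma test, against 4.49% of all genes, and 2 had an unadjusted p under 0.05, against 17.3%. Their median difference was 0.04, and their summed linear level overlapped between groups (23152 to 26767 in control, 22048 to 28424 in dKO). In 4 of the 10 (Hspa1a, Hspa1b, Hspe1 and Hspd1) the groups did not overlap with dKO lower, against 10.7% of all genes. In 1 (Hspa8) they did not overlap with dKO higher, against 12.7%. Hspa1a, the inducible HSP70 gene, differed by -2.39 (adjusted p = 0.124). For the marker counts that follow, 2.45% of all genes passed higher and 2.03% lower. The summed level of 9 of 10 megakaryocyte and platelet markers was 2960 to 2984 in control and 9714 to 11617 in dKO, with 5 genes higher. That of 11 of 13 T and NK cell markers was 611 to 853 in control and 1702 to 2088 in dKO, with 6 higher. That of 8 mast cell and basophil markers was 617 to 723 in control and 1742 to 3834 in dKO, with 4 higher. Monocyte and macrophage markers (8 of 10 measured) summed to 6409 to 10122 in control and 1957 to 2543 in dKO, with 4 lower. Dendritic cell markers (8 measured) summed to 3689 to 4407 in control and 1765 to 2538 in dKO, with 3 lower. Neutrophil markers (8 of 10) summed to 4003 to 5306 in control and 475 to 2913 in dKO. Of them 0 were called by limma and 5 had an unadjusted p under 0.05, against 17.3% of all genes. The sums of B cell (7 of 8) and erythroid markers (6 of 8) overlapped between groups, at 728 to 1223 against 492 to 876 and at 4416 to 4803 against 2988 to 4730, with 1 lower in each. The erythroid genes did not go one way, with a median difference of 0.52. The groups did not overlap in 3 of them higher in dKO (Klf1, Epor and Alas2, not passing) and in 1 lower (Tfrc, which passed). Of all genes, 12.7% and 10.7% did so. RMA gives no value of 0, so no marker was at 0. A sum of linear levels rests mostly on its brightest genes, such as Mpo (mean log2 level 11.67 in control) among the neutrophil markers. Among the T and NK genes, Il2rb differed by 1.80 and passed, and Cd4 by -0.14 and did not. Among the platelet genes Ppbp differed by 4.87 and passed, and Gp6 (0.07), Gp9 (0.25), Gp1bb (0.40) and Vwf (0.21) did not. Thbs1 is itself a platelet product, and T and NK cells can make Cd69 and Fasl. Klf4, which fell, is active in monocytes, whose marker Csf1r fell by 2.44. The part of these cell types in the members' differences was not tested.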

How the data were processed

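RNA of sorted cells was amplified and hybridised to 6 arrays, 3 per group. Each deposited value is a log2 level from RMA, which the authors ran according to the submitters' processing notes. The method subtracts background, applies quantile normalization and combines the probes of a set. Its version is not given in the sources used here. Arrays have no depth, and their number limits the precision.

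Of 45101 probe sets, 64 controls were left out. Of the other 45037, 34945 had 1 gene symbol in the platform annotation, 932 several and 9160 none. Symbols were updated by gene identifier through a RefSeq table (34741 matched). Groups came from the sample titles. Differences (dKO minus control) were fitted with lmFit and eBayes of limma 3.58.1 (R 4.3.3), with no term but the group, and two-sided p-values were adjusted by Benjamini-Hochberg over the 45037 probe sets. The brightest probe set on average represents a gene in counts of genes. Means carry the SD over arrays and differences the SE of the fit. Arrays of a group hold different pools, so errors describe pools. Family pairs were tested by exact permutation in scipy 1.17.1.

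On simulated data for this comparison (20 runs, 200 of 45037 probe sets changed), the fit recovered 0.4% of 1.5-fold, 14.4% of 2-fold, 71.1% of 4-fold and 91.0% of 8-fold changes, and 3.23% of its calls were false. The data themselves gave 1622 calls. The adjustment depends on how many probe sets change, so the shares recovered there may differ. The members, lists, alternatives and motifs were chosen with earlier results of these data known. Named genes are all members, Myc, Mycn, Xist, the sorting genes and up to 4 genes with the smallest p of each list. The remaining called list genes, the uncalled genes given as values and the named cell type markers were added after their values were seen. Alternatives changed the scaling, the treatment of dim and repeated probe sets, the variance model, the weights, the block, the test, the threshold and the arrays. Figures were drawn with matplotlib 3.10.9.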

Additional observations from a re-analysis of the deposited data

How the results depend on the processing

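The number of probe sets called among all 45037 was 1622. It was 2509 with array weights, 2666 and 515 at thresholds of 0.1 and 0.01, 565 without control 1 and dKO 1 together and 53 with a plain unmoderated test, and it ranged from 661 (without control 2) to 1472 (without dKO 3) when single arrays were left out. The member probe sets higher in dKO numbered 4 and were 2 of 9 kept by a filter on dim probe sets (Egr1 and the brighter Egr2 probe set, while Atf3 and the other Egr2 probe set were removed and not retested), 1 at a threshold of 0.01 and 0 with the plain unmoderated test, where Egr1 had an adjusted p of 0.0818. With single arrays left out they ranged from 1 (without control 2) to 5 (without dKO 3), and with array weights they were 5, the dimmer Egr3 probe set included. The count of members lower in dKO was 0 under every alternative run. With the replicate number as a block, 1252 probe sets were called, with Egr1, both Egr2 probe sets and Atf3 among them. Over all probe sets, same-numbered arrays did not deviate together (r = 0.062, -0.035 and 0.006, against -0.058 to 0.061 for differently numbered arrays). The numbers were therefore not taken as pairs. Xist was high in array 1 of both groups, and whether pools were matched by number was not tested. The sign of Jun's dimmer probe set turned, from -0.01 to 0.030 with cyclic loess and 0.025 with array weights, and between -0.12 and 0.16 with single arrays left out. That of Egr3's brighter probe set ranged from -0.014 to 0.22 in that way. With the probe sets of smallest SD, Jund over Junb turned from 0.06 to -0.25, Junb over Jun went from 0.16 to 0.64 and Jund over Jun from 0.22 to 0.39. The causes were not tested. Nr4a1 in every array, and Atf3, Junb, both Egr2 probe sets and the dimmer Egr3 probe set in every control array, lay below the array medians, and no detection calls were used here.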
